A study of Rattus norvegicus with 8 samples.

Results

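The genes described here encode the 3 TGF-beta ligands (Tgfb1, Tgfb2, Tgfb3), the type I and type II TGF-beta receptors (Tgfbr1, Tgfbr2), the signal carrier Smad3, the inhibitory Smad7, and the Id proteins Id1, Id2 and Id3. They were taken by gene symbol from the annotation of a rat expression array. Of the 10 genes, 9 had a probe set under their symbol, which gave 15 of the 31099 probe sets on the array. The expression of Tgfbr2 was not analysed here. After the dimmest probe sets were left out, 10 of the 15 probe sets and 8 genes remained for testing, among 10046 genes in all. Tgfb2 did not pass that filter.

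The cells were FRTL-5, a rat thyroid follicular line that keeps thyroglobulin synthesis and iodide uptake in culture, in its SB5 sub-clone. One line stably expressed the L629F mutant of the human TSH receptor, a constitutively activating mutation, and the other stably expressed the wild-type (WT) human receptor. Each line received 1 mM sodium iodide or 1 mM sodium chloride as the isotonic control, which gave 4 groups of 2 arrays: L629F with iodide, L629F with chloride, WT with iodide and WT with chloride. All 8 samples, L629F and WT, had 5 mU/ml bovine TSH in the medium, and the length of the treatment was not given in the sources used here. The stated question was which transcripts iodide alters in this model of thyroid autonomy. Each receptor was represented by 1 line, so a difference between receptors cannot be told apart from a difference between the lines. The array probes rat Tshr, not the human receptor that was introduced, so it offered no check of the receptor labels. The labels do not say whether replicates were separate cultures, so the p-values here reflect how far these arrays differ from each other, which may be technical.

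TGF-beta dimers bind the type II receptor, which recruits and phosphorylates the type I receptor, and this receptor phosphorylates Smad2 and Smad3. These enter the nucleus with Smad4, while Smad7, itself a target of the pathway, blocks the type I receptor and closes a feedback loop. Id proteins have a helix-loop-helix domain without a DNA-binding region, so they hold E proteins away from E boxes and delay differentiation. In many epithelial cells bone morphogenetic proteins raise Id transcripts through Smad1 and Smad5, and TGF-beta lowers them. In thyroid follicular cells TGF-beta is known as an inhibitor of growth and of thyroid-specific functions.

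The proximal promoters of Id3 and Id1 are shown because these Id genes had the lowest unadjusted p-values among the 8 tested genes. They come from RefSeq on the GRCr8 rat genome and run from 250 bases before to 50 bases after the annotated gene start. The Id3 window is chr5:153656041-153656340 on the plus strand and the Id1 window is chr3:161671314-161671613 on the plus strand. Capitals mark the Smad-binding letters CAGAC.
Id3 promoter: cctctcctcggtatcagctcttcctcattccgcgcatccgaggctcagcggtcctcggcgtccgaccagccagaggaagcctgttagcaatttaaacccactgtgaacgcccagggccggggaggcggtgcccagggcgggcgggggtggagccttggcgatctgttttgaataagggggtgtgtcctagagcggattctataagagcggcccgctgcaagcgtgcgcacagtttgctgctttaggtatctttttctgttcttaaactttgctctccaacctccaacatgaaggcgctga
Id1 promoter: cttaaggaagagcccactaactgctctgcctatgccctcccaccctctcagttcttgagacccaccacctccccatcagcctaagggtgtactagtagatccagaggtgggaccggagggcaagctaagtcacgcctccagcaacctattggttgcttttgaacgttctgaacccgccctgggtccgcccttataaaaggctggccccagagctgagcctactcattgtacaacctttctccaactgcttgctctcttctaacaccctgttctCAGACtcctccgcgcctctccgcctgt
The windows of all 10 genes were searched on both strands for 6 motifs. The letters CAGAC, a Smad-binding element, occurred in 50.1% of the 33469 promoter windows in the table and once in the Id1 window. The E box CANNTG, the binding site of basic helix-loop-helix proteins, occurred in 72.1% of all windows and in those of Tgfb2, Tgfb3, Tgfbr2, Smad3, Id1 and Id2. The BMP-responsive letters GGCGCC, in 11.02% of all windows, occurred in those of Tgfbr1, Smad3 and Smad7. The short cAMP response letters TGACG, in 21.2% of all windows, occurred in those of Tgfb1 and Smad3. The full cAMP response element, those letters followed by TCA, occurred in 1.83% of all windows and in none of the 10, and any match to it is also a match to the short form. The palindrome of 2 Smad-binding elements, GTCTAGAC, occurred in 0.197% of all windows and in none of the 10. The Id3 window held none of the 6. A match describes letters and not a bound site.

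Values are MAS5 signals on a linear scale. Every array had been scaled to the same trimmed mean, 500.2 with 2% cut from each end. Median signals were 138 to 147 on the L629F arrays and 118 to 127 on the WT arrays. The 25th percentiles were 40.8 to 43.1 in L629F and 29.3 to 31.6 in WT, so dim probe sets read higher on the L629F arrays. The GAPDH 3′ to 5′ ratio, a measure of RNA and labelling quality, was 2.27 and 2.49 in L629F with iodide, 1.54 and 2.17 in L629F with chloride, 1.40 and 3.13 in WT with iodide, and 1.22 and 1.55 in WT with chloride. Of 11 thyroid markers with a probe set, 9 passed the filter, among them thyroglobulin (Tg) at 10747 to 16582 and the thyroid transcription factor Nkx2-1 at 7031 to 9722. The deiodinase Iyd, at 14.9 to 172, and the anion exchanger Slc26a4, at 11.97 to 144, were too dim. Of markers of other cells, 2 of 5 for C cells passed (Chgb at 202 to 351 and Syp), 2 of 9 for fibroblasts (Col1a1 and Pdgfra), 2 of 6 for endothelium (Flt1 and Vwf) and 3 of 8 for leucocytes (Cd14, Cd3e and Lyz2). The calcitonin gene Calca, at 10.4 to 101, the fibroblast gene Dcn, at 2.59 to 12.8, Pecam1 of endothelium, at 9.43 to 111, and Ptprc of leucocytes, at 3.92 to 116, did not pass. In these bulk samples fewer cells with a transcript and less transcript per cell cannot be told apart.

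Id3 was the only one of the 8 tested genes whose change passed the test, and it was lower both with iodide and in the L629F line. Averaged over both receptors it was 0.731-fold of the chloride level with iodide. Averaged over both salts it was 0.715-fold of the WT level in L629F cells. Changes are on the log2(signal + 35.3) scale, tested with limma across all 10046 genes with Benjamini-Hochberg adjustment, and a change was called at an adjusted p under 0.05.

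Id3, an inhibitor of E proteins linked to proliferation, had signals of 1733 and 1635 in L629F cells with iodide, against 2440 and 2327 in L629F cells with chloride. In the WT line the signals were 2551 and 2324 with iodide, against 3513 and 3011 with chloride. The iodide arrays lay below the chloride arrays in each line, and the L629F arrays lay below the WT arrays under each salt. The group means were 1684 ± 69.9 in L629F with iodide, 2383 ± 80.1 in L629F with chloride, 2437 ± 160 in WT with iodide and 3262 ± 355 in WT with chloride (SD, n = 2 each). The L629F cells with chloride and the WT cells with iodide thus had overlapping levels.

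**Figure D1:**
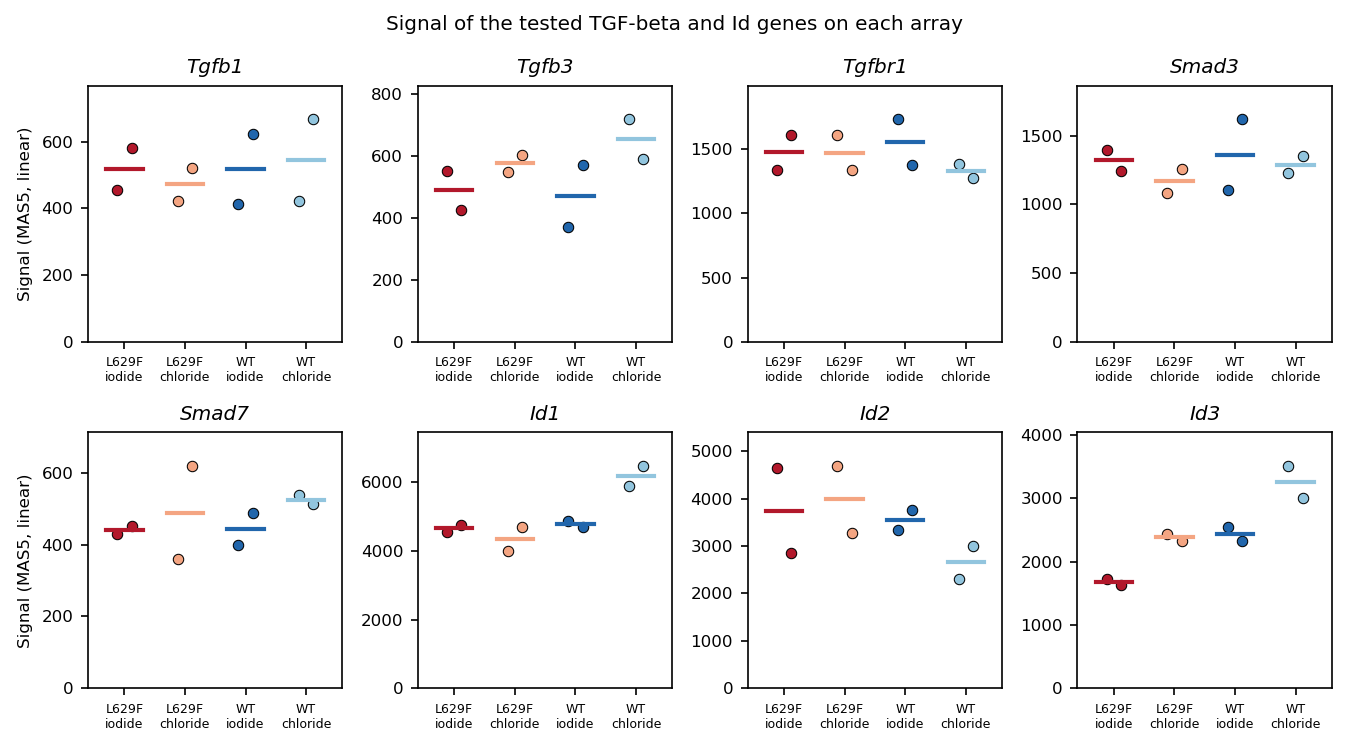
MAS5 signal (y axis, linear, from 0) of the brightest probe set of each of the 8 tested genes, by group (x axis). Points are single arrays and bars are means of 2; Id3 lies between 1635 and 1733 in L629F with iodide and between 3011 and 3513 in WT with chloride.

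The iodide change of Id3, averaged over both lines, was -0.45 ± 0.10 (log2, SE; 95% interval -0.67 to -0.24; limma adjusted p = 0.0394). It was lower with iodide in both lines. Within the L629F line the change was -0.49 ± 0.14 (limma adjusted p = 0.313), and within the WT line it was -0.41 ± 0.14 (limma adjusted p = 0.238). Neither line alone passed the threshold. The difference between the lines in this change, L629F minus WT, was -0.08 ± 0.20, with a 95% interval of -0.51 to 0.35 (limma adjusted p = 0.998), which leaves room for a stronger or a weaker change in either line. The averaged call passed without the first WT iodide array (adjusted p = 0.0351). It was lost without any other single array, L629F or WT, iodide or chloride (adjusted p from 0.0867 to 0.222), while the change stayed between -0.51 and -0.40. The GAPDH ratio was higher on average with iodide in each line, and with that ratio as a covariate the change was -0.37 (adjusted p = 0.0806). Without the 2 arrays of highest ratio, the second iodide array of each line, it was -0.40 (adjusted p = 0.137). The call was also lost with no filter (limma adjusted p = 0.0567) and with centring on the median of kept (0.0502) or all (0.0569) probe sets. It was lost too with every kept probe set fitted on its own (0.0630) and with no intensity trend (0.165). It held in 9 of 16 settings. These include the same fit at a looser threshold of 0.10, which it could not fail.

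The receptor change of Id3, averaged over both salts, was -0.48 ± 0.10 (log2, SE; 95% interval -0.70 to -0.27; limma adjusted p = 0.0214). With iodide in both lines, L629F against WT gave -0.52 ± 0.14 (limma adjusted p = 0.152). With chloride in both lines, it gave -0.44 ± 0.14 (limma adjusted p = 0.205). The averaged call held without the first WT iodide array (adjusted p = 0.0446) or without the second (adjusted p = 0.0298). It was lost without any 1 of the 4 L629F arrays or the 2 WT chloride arrays (adjusted p from 0.0561 to 0.117). Without the 2 arrays of highest GAPDH ratio the change was -0.50 and the call was lost. With no intensity trend it was lost too (limma adjusted p = 0.0777). The call held in the other 14 of 16 settings. These include the same fit at a looser threshold of 0.10, which it could not fail. In a separate limma fit over all probe sets, not counted among the settings, the receptor call was lost (adjusted p = 0.0517). Centring each array on the median of all its probe sets, which lowers L629F against WT by 0.17 log2 units, gave -0.65 (limma adjusted p = 0.00436). A summed signal of 5 C cell markers moved the same way as the dim probe sets, at 517 to 578 on the L629F arrays against 299 to 485 on the WT arrays. Only 2 of the 5, Chgb and Syp, were bright enough to test, Calca and Chga were not, and neither of the 2 changed by the test. Their part in the Id3 result was not tested.

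**Figure D2:**
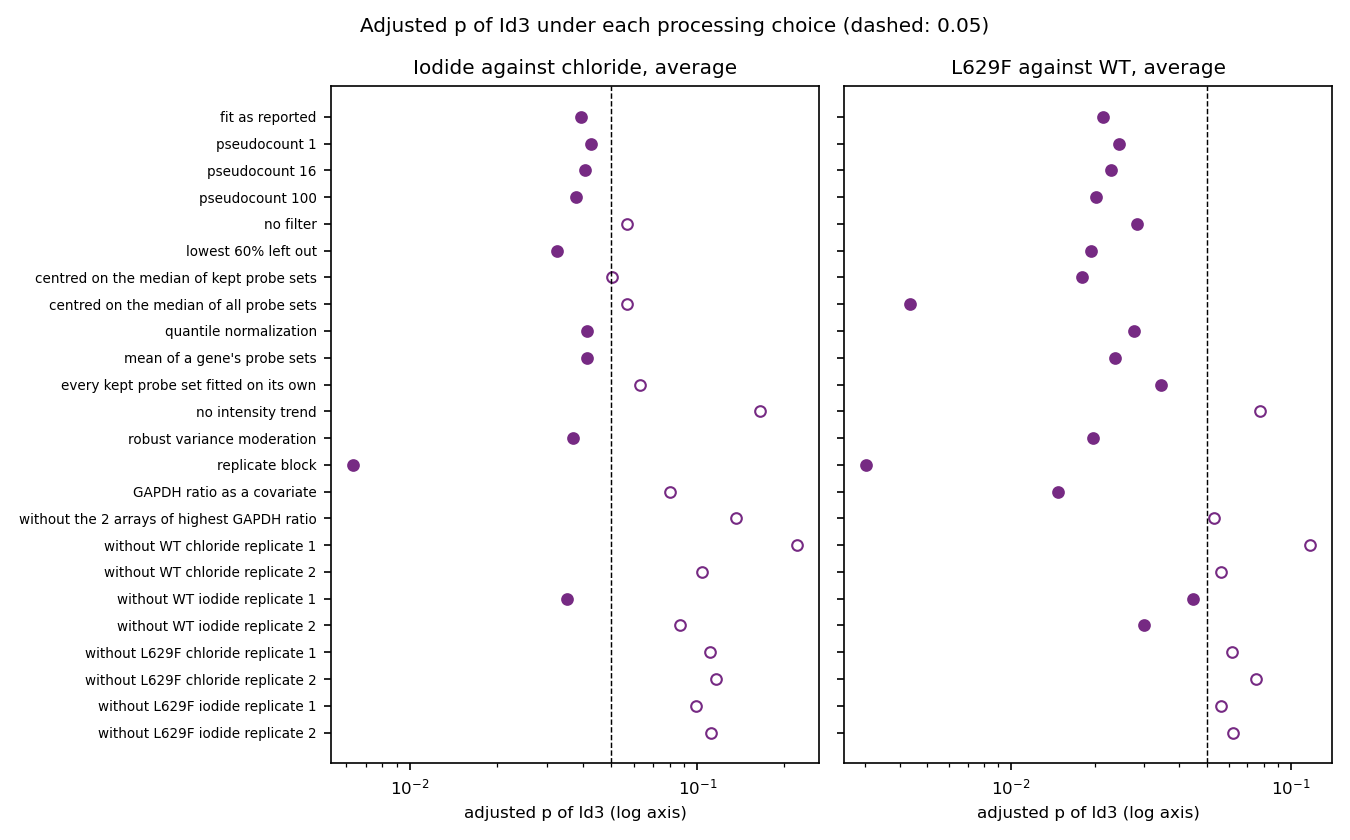
Adjusted p of Id3 from limma (x axis, log scale) in the averaged iodide (left) and receptor (right) comparisons, under each processing setting and with each array left out (down the page). Filled points lie under the dashed line at 0.05; of the 8 fits that leave out 1 array, 1 lies under it for iodide and 2 for the receptor.

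Id1 and Id2 did not pass the test in any comparison. Id1, a close relative of Id3 and a classical BMP target, had signals of 4549 and 4769 in L629F cells with iodide, against 3988 and 4697 in L629F cells with chloride. In the WT line it had 4882 and 4711 with iodide, against 5893 and 6481 with chloride. The 2 WT chloride arrays stood above the other 6. The iodide change of Id1 was 0.10 ± 0.13 in L629F (limma adjusted p = 0.885) and -0.36 ± 0.13 in WT (limma adjusted p = 0.261). The difference between these, L629F minus WT, was 0.47 ± 0.18, with an unadjusted p of 0.0239 that did not survive limma's adjustment over all genes (adjusted p = 0.994). With chloride in both lines, L629F against WT was -0.51 ± 0.13 (limma adjusted p = 0.119). With iodide in both it was -0.04 ± 0.13, with a 95% interval of -0.32 to 0.24 (limma adjusted p = 0.930). The averaged receptor change of -0.28 ± 0.09 did not pass (limma adjusted p = 0.122). Under centring on the median of all probe sets it was -0.45 and passed, on a scale where L629F lies 0.17 lower throughout.

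Id2, which like the others restrains E proteins and also binds the retinoblastoma protein, is represented by 2 probe sets that did not go the same way. The brighter one read 4645 and 2844 in L629F with iodide, and 4690 and 3273 in L629F with chloride. In WT it read 3344 and 3770 with iodide, against 2314 and 3010 with chloride. Replicates of the L629F line lay far apart, at SDs of 1273 with iodide and 1002 with chloride. The averaged receptor change was 0.30 ± 0.16 (limma adjusted p = 0.319), and the iodide change in WT was 0.42 ± 0.22 (limma adjusted p = 0.461). The dimmer probe set read 62.3 and 62.5 in L629F with iodide and 61.7 and 103 in L629F with chloride. In WT it read 111 and 192 with iodide and 150 and 123 with chloride. Here the L629F arrays lay below the WT arrays, with an averaged receptor change of -0.73 ± 0.28 in the limma fit over all probe sets (adjusted p = 0.263). No direction can be given for Id2 in L629F against WT.

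Among the ligands, no change passed the test. Tgfb1, the most widely expressed of the 3 ligands, had 455 and 581 in L629F with iodide, against 421 and 522 in L629F with chloride. The WT line had 413 and 622 with iodide, against 423 and 666 with chloride. Replicate 2 was the higher array in every group, and the replicates of each group lay farther apart than any 2 group means. The averaged iodide change was 0.03 ± 0.18 (95% interval -0.35 to 0.42; limma adjusted p = 0.956), which leaves room for a change of that size in either direction.

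Tgfb3, a ligand that palate fusion requires in mice, had 552 and 424 in L629F with iodide, against 548 and 602 in L629F with chloride. In WT it had 371 and 570 with iodide, against 717 and 590 with chloride. The iodide arrays lay below the chloride arrays in WT, while they overlapped in L629F. The averaged iodide change of -0.35 ± 0.16 had an unadjusted p of 0.0463 and did not pass (limma adjusted p = 0.317). The averaged receptor change was -0.05 ± 0.16 (limma adjusted p = 0.888).

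Tgfb2, the remaining ligand, read low on both probe sets, with geometric means of 50.9 and 12.5 over all arrays against a filter level of 65.4. The brighter of these read 176 and 99.6 in L629F with iodide, against 30.5 and 67.6 in L629F with chloride. In WT it read 63.1 and 20.1 with iodide, against 60.9 and 16.03 with chloride. The L629F iodide arrays stood above the other 6, but at levels where replicates of one group differed by several fold. In the limma fit over all probe sets the averaged iodide change was 0.55 ± 0.35 (adjusted p = 0.688).

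Tgfbr1, the type I receptor kinase, had 1342 and 1612 in L629F with iodide, against 1607 and 1341 in L629F with chloride. WT cells had 1733 and 1376 with iodide, against 1387 and 1277 with chloride. All 4 groups overlapped with at least 1 other, and the averaged changes were 0.11 ± 0.12 for iodide (limma adjusted p = 0.738) and 0.03 ± 0.12 for the receptor (limma adjusted p = 0.899). A second, dim probe set of Tgfbr1, left out by the filter, read 132 and 129 in L629F with iodide and 6.32 to 83.3 on the other 6 arrays.

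Smad3, which carries the signal to the nucleus, had 1395 and 1245 in L629F with iodide, against 1084 and 1260 in L629F with chloride. In WT it had 1107 and 1619 with iodide, against 1227 and 1354 with chloride. The groups overlapped, and the averaged changes were 0.11 ± 0.13 for iodide (limma adjusted p = 0.750) and -0.08 ± 0.13 for the receptor (limma adjusted p = 0.776). Its dim second probe set read 80.7 and 68.2 in L629F with iodide and 6.10 to 49.8 on the other 6 arrays. The bright probe sets of Tgfbr1 and Smad3 did not show this. The dimmer Tgfb2 probe set did not show it either, at 15.1 and 12.3 in L629F with iodide and 2.94 to 58.2 on the other 6 arrays.

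Smad7, the feedback inhibitor, had 430 and 451 in L629F with iodide, against 359 and 619 in L629F with chloride. In WT it had 400 and 487 with iodide, against 537 and 513 with chloride. The iodide arrays lay below the chloride arrays in WT and inside their range in L629F. The averaged changes were -0.16 ± 0.17 for iodide (limma adjusted p = 0.703) and -0.07 ± 0.17 for the receptor (limma adjusted p = 0.848). Its 2 other probe sets were dim, with readings from 29.6 to 160 over all arrays, and their averaged receptor changes had opposite signs, 0.63 ± 0.33 and -0.17 ± 0.31.

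**Figure D3:**
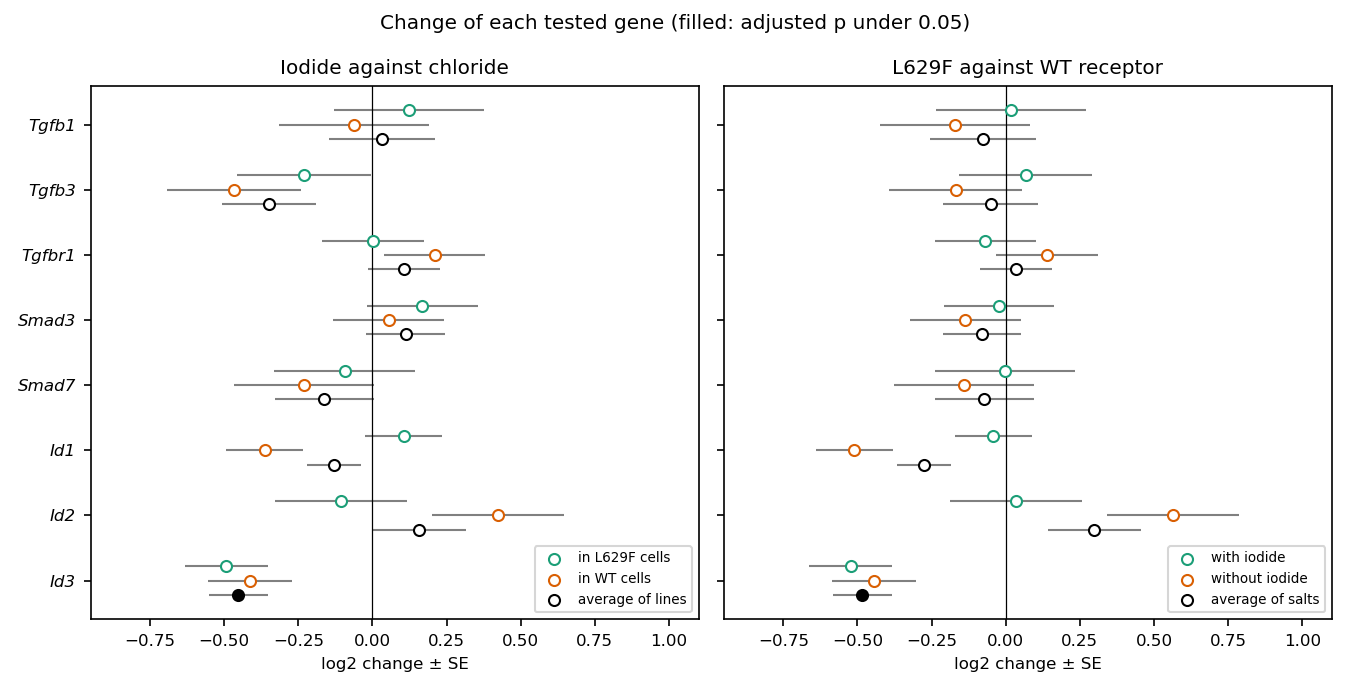
Log2 change ± SE (x axis) of the 8 tested genes (y axis) for iodide against chloride (left: in L629F, in WT and averaged) and L629F against WT (right: with iodide, without iodide and averaged). Filled points passed limma at an adjusted p under 0.05; only Id3 is filled, in the 2 averaged comparisons.

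Counted by comparison, the 8 tested genes stood as follows. For iodide in L629F cells limma called 0 of the 8, against 0.0896% of all genes tested. There 1 gene, Id3, had an unadjusted p under 0.05, against 8.18% of all genes. For iodide in WT cells limma called 0 of the 8, against 0.458% of all genes. There 2 genes, Id1 and Id3, had an unadjusted p under 0.05, against 12.5% of all genes. For the average over both lines limma called 1 of the 8, Id3, which was lower. Of all genes, 1.6% were called and 1.09% were called as lower. The difference between the lines in the iodide change gave 0 calls by limma among the 8 and among all genes (0%). There 1 of the 8, Id1, had an unadjusted p under 0.05, against 4.18% of all genes. The call concerns Id3 and not the 8 genes as a set.

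For the receptor, L629F against WT, limma called 0 of the 8 with iodide, against 0.498% of all genes. Id3 alone had an unadjusted p under 0.05, against 12.1% of all genes. With chloride limma called 0 of the 8, against 0.478% of all genes. Id1, Id2 and Id3 had unadjusted p-values under 0.05, against 13.7% of all genes. Averaged over both salts limma called 1 of the 8, Id3, which was lower. Of all genes, 3.13% were called and 1.09% were called as lower. The median change of the 8 genes was -0.07 in that average, against 0.00 over all genes. For the averaged iodide comparison the medians were -0.05 for the 8 genes and 0.01 over all genes. The averaged comparisons use the same 8 arrays and are given side by side only.

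Groups that did not overlap were common at 2 arrays a group. With iodide in L629F, 1 of the 8 genes, Id3, lay wholly below its chloride group, against 18.5% of all genes. With iodide in WT, 4 of the 8, Tgfb3, Smad7, Id1 and Id3, lay wholly below, against 19.5% of all genes, and Id2 lay wholly above, against 23.7%. L629F cells with iodide lay wholly below WT cells with iodide for 1 of the 8, Id3, against 20.7% of all genes. L629F cells with chloride lay wholly below WT cells with chloride for 2 of the 8, Id1 and Id3, against 22.9% of all genes, and Id2 lay wholly above, against 24.8%.

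Around these genes, 134 further genes of the pathway and of its neighbours were listed, and 97 of them were tested. The lists were chosen with earlier results of these data known. Their counts beside the share of all genes are therefore a description and not a test of an excess. In the averaged iodide comparison limma called 2 of the 97 as higher and 5 as lower, beside 1.6% of all genes called. In the averaged receptor comparison it called 4 as higher and 4 as lower in L629F, beside 3.13% of all genes. For iodide within L629F limma called 0 of the 97, beside 0.0896% of all genes. There 17 had an unadjusted p under 0.05, beside 8.18% of all genes. Within WT limma called Areg as higher and Fn1, Sparc and Col4a1 as lower, beside 0.458% of all genes. The difference between the lines in the iodide change gave 0 limma calls, with 6 at an unadjusted p under 0.05, beside 4.18% of all genes. For L629F against WT with iodide, Tgm2 and Fn1 were called as higher and Junb and Areg as lower, beside 0.498% of all genes. With chloride limma called 0, beside 0.478% of all genes. There 18 had an unadjusted p under 0.05, beside 13.7% of all genes. The WT iodide calls of all 4 genes were lost without either WT chloride array, that of Fn1 also without the second WT iodide array and that of Col4a1 without either WT iodide array (adjusted p up to 0.348). With iodide, the receptor call of Fn1 was lost without any 1 of the 8 arrays (adjusted p up to 0.256), and that of Areg without either L629F iodide array, the first WT iodide array or either WT chloride array (adjusted p up to 0.162). The median changes of the 97 genes were -0.05 for iodide and -0.02 for the receptor in the averages, beside 0.01 and 0.00 over all genes. Without the intensity trend in limma, Areg alone kept its averaged iodide call, and those of Inhbb, Itgav, Fn1, Sparc, Col4a1 and Nr4a3 were lost (adjusted p from 0.0593 to 0.163). Fn1, Areg and Junb kept their averaged receptor calls, and those of Id4, Tgm2, Smurf2, Mmp14 and Myc were lost (adjusted p from 0.0560 to 0.1004). Of 14 other receptors and Smads tested, limma called 0 in every comparison. At most 1 had an unadjusted p under 0.05, a level that 4.18% to 19.7% of all genes reached, by comparison.

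Of 18 other ligands and antagonists, Inhbb alone was called, and it fell with iodide. Inhbb, which encodes the beta B subunit of activins and inhibins, had 1660 and 1702 in L629F with iodide, against 2126 and 2551 in L629F with chloride. In WT it had 1352 and 1493 with iodide, against 2024 and 1977 with chloride. The iodide arrays lay below the chloride arrays in both lines, with an averaged change of -0.47 ± 0.10 (limma adjusted p = 0.0396). The call was lost when any 1 of the 8 arrays, L629F or WT, was left out (adjusted p from 0.0540 to 0.191).

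Of 7 tested genes that can release active TGF-beta from its latent form, Itgav fell with iodide, while Tgm2 was higher and Mmp14 lower in L629F. Itgav, the integrin alpha V chain that binds the latent complex, had 326 and 490 in L629F with iodide, against 768 and 683 in L629F with chloride. In WT it had 459 and 474 with iodide, against 948 and 736 with chloride. The iodide arrays lay below the chloride arrays in both lines, with an averaged change of -0.80 ± 0.15 (limma adjusted p = 0.0178). Its other 2 probe sets gave -0.64 ± 0.16 and -0.61 ± 0.16. Neither passed in the limma fit over all probe sets, which adjusts over more tests than the fit that gave the call (adjusted p = 0.201 and 0.219). The call of the brightest probe set was lost without either WT chloride array, either L629F chloride array or the first L629F iodide array.

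Tgm2, a transglutaminase that cross-links latent TGF-beta to matrix, had 3418 and 3149 in L629F with iodide, against 1892 and 2106 in WT with iodide. With chloride it had 3151 and 3269 in L629F, against 2163 and 2603 in WT. The L629F arrays lay above the WT arrays, by 0.57 ± 0.10 on average (limma adjusted p = 0.00912). That call was lost without the first WT chloride array (adjusted p = 0.0688). With iodide in both lines the change was 0.71 ± 0.14 (limma adjusted p = 0.0493), a call lost without any 1 of the 8 arrays (adjusted p up to 0.248). A second probe set gave 0.22 ± 0.14, and the mean of both gave 0.39 (adjusted p = 0.0870). Mmp14, a membrane protease that can cleave the latent complex, averaged -0.46 ± 0.09 in L629F against WT (limma adjusted p = 0.0157), but its second probe set gave 0.19 ± 0.17 and the mean of both gave -0.13 (adjusted p = 0.553). The call held without either WT iodide array and was lost without any other single array (adjusted p up to 0.0897).

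Of 8 tested partners and relatives of the Id proteins, Id4 was called, and it was higher in L629F, the direction opposite to that of Id3. Id4, the fourth Id protein, which can oppose the other Id proteins in human cells, had 6149 and 6378 in L629F with iodide, against 4184 and 3867 in WT with iodide. With chloride it had 6492 and 5810 in L629F, against 3974 and 4888 in WT. All L629F arrays lay above all WT arrays, by 0.55 ± 0.10 on average (limma adjusted p = 0.00799), and the call was lost without the first WT chloride array (adjusted p = 0.0637). Its 3 other probe sets gave 0.40 ± 0.26, 0.87 ± 0.19 and 0.58 ± 0.13. None of these passed in the limma fit over all probe sets (adjusted p = 0.492, 0.0764 and 0.0920). That fit adjusts over more tests than the fit that gave the Id4 call, so these adjusted p-values are not on equal terms. With iodide against chloride Id4 averaged -0.05 ± 0.10 (limma adjusted p = 0.850).

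Of 18 tested regulators of Smad signalling, Smurf2 was called as higher in L629F. Smurf2, a ubiquitin ligase that acts on Smads and their receptors, averaged 0.54 ± 0.13 in L629F against WT (limma adjusted p = 0.0381). Its second probe set gave -0.41 ± 0.15 and the mean of both gave 0.06 (adjusted p = 0.831), so the probe sets gave no common direction. The call held without the first WT iodide array and was lost without any other single array (adjusted p up to 0.169).

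Of 19 tested genes known as TGF-beta targets, the matrix genes Fn1, Sparc and Col4a1 fell with iodide in the average. Their changes were -1.07 ± 0.15, -1.02 ± 0.13 and -0.96 ± 0.17 (limma adjusted p = 0.00255, 0.00178 and 0.0125). Of the 19, 8 had a positive averaged iodide change, and the median was -0.02, beside 0.01 over all genes. Calls for Fn1 and Sparc held with each array left out. That for Col4a1 was lost without either WT chloride array, the second L629F chloride array or the first L629F iodide array (adjusted p up to 0.0902). Fn1, fibronectin, was higher in L629F, with 664 and 798 in L629F with iodide against 384 and 289 in WT with iodide. With chloride it had 1271 and 1736 in L629F, against 698 and 871 in WT, and its averaged receptor change was 0.97 ± 0.15 (limma adjusted p = 0.00381).

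Junb, an AP-1 subunit induced by TGF-beta in many cells, had 40.03 and 35.6 in L629F with iodide, against 238 and 198 in WT with iodide. With chloride it had 184 and 107 in L629F, against 169 and 135 in WT. The L629F iodide arrays alone stood apart, below the other 6 and near the dim end of the scale. Those readings lay under the 25th percentile of their arrays, 43.1 and 40.8, so the size of the change depends on the constant added. L629F against WT with iodide was called as lower (limma adjusted p = 0.0362), at -1.79 with the constant of 35.3, -2.49 with 1 and -1.20 with 100. The averaged change was -0.93, -1.30 and -0.63 with these constants, called with the first (limma adjusted p = 0.0473) and with 1 (0.0490), and lost with 100 (0.0538). The call with iodide held without the second L629F chloride array and was lost without any other 1 array, L629F or WT (adjusted p up to 0.162), and the averaged call was lost without any 1 of the 8. Myc, a growth gene that TGF-beta represses in epithelia, averaged -0.49 ± 0.12 in L629F against WT (limma adjusted p = 0.0490), a call kept without the first WT iodide array and lost without any other single array (adjusted p up to 0.173).

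Of 13 tested cAMP-responsive genes, Areg and Nr4a3 rose with iodide in the average, by 0.96 ± 0.12 and 0.91 ± 0.19 (limma adjusted p = 0.00107 and 0.0264). The list as a whole did not rise. Of the 13, 5 had a positive averaged iodide change, and the median was -0.08, beside 0.01 over all genes. Areg encodes the EGF-receptor ligand amphiregulin and Nr4a3 an orphan nuclear receptor. Areg was lower in L629F than in WT, with an averaged change of -0.70 ± 0.12 (limma adjusted p = 0.00639), and both Areg calls held with each array left out. The other 2 Nr4a3 probe sets gave 0.53 ± 0.37 and 0.39 ± 0.26, and the mean of all probe sets gave 0.61 (adjusted p = 0.134). With no filter the adjusted p was 0.0862. The Nr4a3 call held without the second WT iodide array or the first L629F chloride array and was lost without any other single array (adjusted p up to 0.141).

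**Figure D4:**
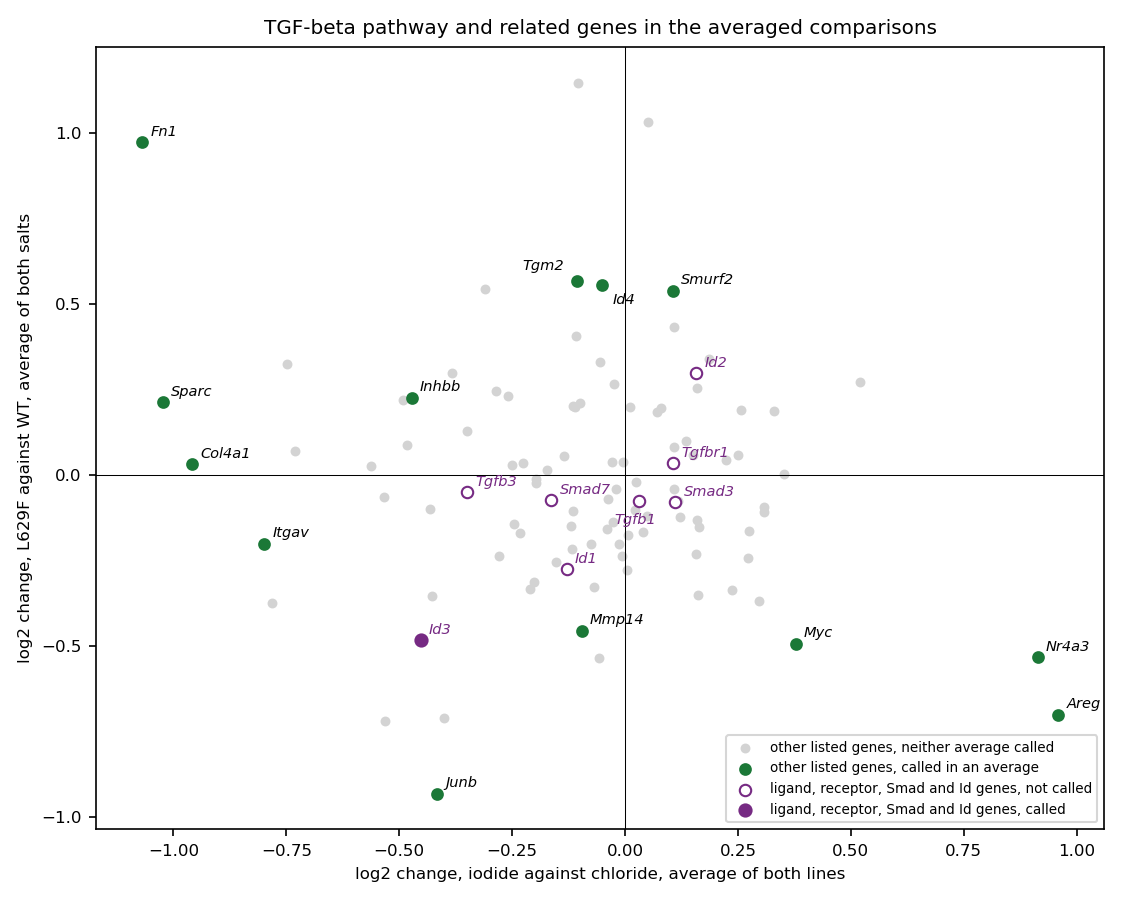
Averaged log2 change with iodide (x axis) and in L629F against WT (y axis) for the 97 other listed genes and the 8 tested ligand, receptor, Smad and Id genes; both axes use the same 8 arrays. Green and filled purple points passed limma in at least 1 average: Id3 lies at -0.45 and -0.48, Id4 at -0.05 and 0.55.

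Of 9 tested thyroid follicular markers, the transcription factor Hhex rose with iodide in the average, by 0.38 ± 0.09 (limma adjusted p = 0.0449), and the iodide transporter Slc5a5 fell, with a change of -1.02 ± 0.21 (limma adjusted p = 0.0264). The oxidase Duox2 was higher in L629F than in WT, by 0.50 ± 0.11 on average (limma adjusted p = 0.0255). Under quantile normalization the Hhex change was 0.19 (limma adjusted p = 0.158), and with the GAPDH ratio as a covariate it was 0.29 (0.0961). The Hhex call was also lost with no filter (limma adjusted p = 0.132), with every kept probe set fitted on its own (0.0702) and with no intensity trend (0.216). Without the 2 arrays of highest GAPDH ratio the Hhex change was 0.34. The Slc5a5 call was lost with no filter (limma adjusted p = 0.0785) and with no intensity trend (0.172). With centring on all probe sets the Duox2 change was 0.32 (limma adjusted p = 0.0677). Calls for Hhex and Duox2 held without the first WT iodide array and were lost without any other single array (adjusted p up to 0.227). That for Slc5a5 was lost without the first L629F iodide array, the second L629F chloride array, the first WT iodide array or either WT chloride array (adjusted p up to 0.141). Of the tested markers of other cells (2 C cell, 2 fibroblast, 2 endothelial and 3 leucocyte markers), limma called 0 in every comparison. At most 1 of each list had an unadjusted p under 0.05, a level that 4.18% to 19.7% of all genes reached, by comparison. Summed fibroblast marker signals were 414 to 601 in L629F and 353 to 440 in WT, and summed leucocyte marker signals 454 to 618 in L629F and 405 to 583 in WT. Summed endothelial marker signals were 344 to 367 in L629F with iodide, against 501 to 619 in L629F with chloride, and 404 to 639 in WT with iodide, against 438 to 584 in WT with chloride. Their part in the changes above was not tested.

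Across the 8 arrays the gene most like Id3 among the 10038 other genes tested was Gadd45a, a stress-induced growth-arrest gene (Pearson r = 0.961 on the log2 scale), followed by Bid, a pro-apoptotic BCL2 family gene (r = 0.958). For Id1 the most similar were Nr1h2 (r = 0.974) and Mydgf (r = 0.954), and for Id2 Dync1li1 (r = 0.933) and Usp27x (r = 0.929). For Tgfb1 they were Mpc2 (r = 0.961) and Atp6v1a (r = 0.959), and for Tgfb3 Fut8 (r = 0.974) and Mgll (r = 0.941). For Tgfbr1, Fbxw17 (r = 0.970) and Med8 (r = 0.951) came first, for Smad3 Eml4 (r = 0.959) and Zfp972 (r = 0.955), and for Smad7 Lpcat4 (r = 0.960) and Mark2 (r = 0.949). These describe 8 arrays that share their groups, and the highest of so many correlations is large by selection. Among the 8 genes themselves, the closest pairs were Tgfb1 with Smad3 (r = 0.68) and Id1 with Id3 (r = 0.62), and the most opposed were Tgfb3 with Tgfbr1 (r = -0.79) and Id1 with Id2 (r = -0.74).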

How the data were processed

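Total RNA of 8 samples, 4 groups of 2, was hybridised to Affymetrix rat arrays. The deposited values are intensities, 1 signal for each probe set on each array, from MAS5 according to the submitters' processing notes; the array scans were not analysed here. Signals had been scaled to a common trimmed mean. Here they were taken as log2(signal + 35.3), the constant being the 25th percentile of all non-control signals. The 57 control probe sets and the 40% of the others with the lowest mean log2 signal (geometric mean under 65.4) were removed. Among all probe sets, 20826 carried 1 gene symbol, 436 several and 9780 none, and 20758 matched current rat genes. A gene was represented by its brightest probe set. limma 3.58.1 (R 4.3.3, intensity trend) fitted the 4 groups together, with 4 residual degrees of freedom and 9.45 prior ones, for 7 comparisons. Probe sets left out or not the brightest come from a second limma fit over all probe sets. The number of arrays limits the precision. From the lists and markers, genes past the threshold in any comparison were named, and the 2 genes with the highest correlation to each gene. The genes and lists were chosen with earlier results of these data known. Alternatives covered the constant, filter, scaling, probe-set choice, variance model, replicate block, GAPDH ratio, a threshold of 0.10 and each array left out.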

Additional observations from a re-analysis of the deposited data

How the results depend on the processing

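The number of called genes among the 8 went to 0 for iodide, averaged over both lines, with no filter, with centring on the kept or on all probe sets, with every kept probe set fitted on its own, with no intensity trend, with the GAPDH ratio as a covariate and with the 2 arrays of highest GAPDH ratio removed; with 1 array left out it was 0 to 1. For L629F against WT, averaged over both salts, it was 0 with no trend and without those 2 arrays, 0 to 1 with 1 array left out, and 2 (Id1 and Id3) with centring on all probe sets. Id1 was the 1 call of L629F against WT with chloride under that centring and with the GAPDH covariate, and Id3 was the 1 call with iodide under that centring. Fewer or more probe sets tested and arrays left out change the test itself; the cause of the other moves was not tested.

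The labels give no shared culture, day or batch for a replicate number, so the numbers were not taken as pairs. Same-numbered arrays correlated at 0.0474 to 0.228 in their deviations, positive throughout. The second array had the higher GAPDH ratio in every group. Whether same-numbered arrays share an origin was not tested. With the number as a replicate block, Id3 gave adjusted p = 0.00635 for iodide and 0.00304 for the receptor, the calls were 1 (Id1) with chloride, 1 (Id3) with iodide and 2 (Id1 and Id3) in the receptor average, and calls over all genes were 5.25% for iodide and 7.77% for the receptor, against 1.60% and 3.13%.

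Over all genes the averaged receptor calls were 204 higher and 110 lower in L629F, and 143 higher and 1233 lower with centring on all probe sets. The averaged iodide calls were 52 higher and 109 lower, against 95 and 95 with that centring, 72 and 100 with centring on kept probe sets and 35 and 124 with quantile normalization. Other settings moved the averaged iodide calls to between 4 higher with 15 lower (no trend) and 250 higher with 277 lower (replicate block). Without the intensity trend the receptor calls were 129 higher and 32 lower, and without the filter 135 and 70. Of 1376 recomputed changes of the 8 genes, 78 changed sign, none of them called. Dim probe sets, 5 of 15, carry no usable level, and 2 arrays a group limit every comparison.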
